A study of Bos taurus with 20 samples.

Results

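PPP1R15A, DDIT3, GADD45A, GADD45B and FOS encode proteins of the acute cellular stress response. Their transcripts were followed in bovine embryos of day 14 that had or had not been vitrified. Vitrification is storage at low temperature after cooling so fast that water sets as a glass without crystals. The genes were taken by symbol, as 5 of the 15542 genes in the deposited expression table, and all 5 passed the filter on low values that left 10599 genes for testing.

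The genes belong to overlapping programmes. In the integrated stress response, kinases phosphorylate the initiation factor eIF2, which lowers protein synthesis in general and favours translation of the transcription factor ATF4. ATF4 in turn raises DDIT3, a transcription factor also called CHOP that is linked to cell death under lasting stress, and PPP1R15A, also called GADD34, which directs protein phosphatase 1 to remove the phosphate from eIF2. GADD45A and GADD45B are small proteins without enzyme activity that bind cell cycle and repair proteins and the kinase MAP3K4, and FOS is an immediate early gene that pairs with JUN family proteins to form the transcription factor AP-1. Trophectoderm (TE), the outer epithelium of the embryo, elongates at this stage and later forms the placenta.

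Fresh embryos, which had not been vitrified, gave 6 samples of the whole embryo and 5 of isolated TE. Vitrified embryos gave 2 of the whole embryo and 7 of TE. All came from Bos taurus embryos recovered from the uterus at day 14, and the only cell type the labels name is embryonic cells. The design text counts 12 fresh and 9 vitrified embryos, but no label ties a sample to an embryo, gives the stage at vitrification or the agents used, or names a batch. P-values therefore measure only the spread among these samples, which may be technical in part, and batch and group cannot be told apart. Because these are bulk samples, fewer cells of a type and less RNA per cell cannot be told apart either.

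Values are RPKM, reads per kilobase of the gene's genomic span and per M reads (M stands for 1000000), so levels are compared between samples and not between genes. Libraries held 6.01 to 14.53 M reads. The 5 fresh TE libraries stood apart. The share of reads in listed genes was 38.0 ± 2.83% there (SD, n = 5) against 58.7 ± 0.943% in vitrified TE (n = 7), and messenger RNAs of the mitochondrial genome took 1.23 ± 0.144% against 8.04 ± 1.44% of listed-gene reads (exact two-sided permutation p = 0.0025 for each, adjusted 0.0051 over 4 tests). The same measures in vitrified and fresh whole embryos gave p = 0.21 and p = 0.79 in that exact test. Fresh TE 1 and 2, and fresh TE 3 and 4, were nearly alike (chi-square per degree of freedom 1.88 and 1.48, against 11.9 to 22.6 for the other fresh TE pairs). Every comparison below that uses fresh TE rests on these libraries, and their part in it was not tested. The exact permutation tests counted all 5 as separate samples, so their p-values can be too small.

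On the UMD3.1 assembly, PPP1R15A lies on the plus strand of chromosome 18, from 55925891 to 55929295, and its nearest listed neighbour, TULP2, lies 1101 bases away and had at most 8 reads in any library. DDIT3 lies on the plus strand of chromosome 5, from 56285008 to 56289215. Its span shares 52 bases with that of MARS on the minus strand, and whether reads were counted by strand is not given in the sources used here. MARS stood at 1.10 to 2.52 RPKM over all 20 libraries. GADD45A lies on the minus strand of chromosome 3, from 77972153 to 77975266. GADD45B lies on the minus strand of chromosome 7, from 22411968 to 22414080. FOS lies on the plus strand of chromosome 10, from 86883739 to 86887170. No other listed gene overlapped these last 3 spans or that of PPP1R15A.

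In TE, all 5 transcripts stood higher in the vitrified samples, and for each gene the lowest of the 7 vitrified samples lay above the highest of the 5 fresh ones. PPP1R15A showed the largest difference, 45.2-fold between group means, and FOS the smallest, 4.23-fold. All 5 rose by limma at an adjusted p under 0.05, in a comparison in which 75.6% of all genes tested changed, 69.0% rose and 6.66% fell. Separation of the groups with the vitrified samples higher was found for 54.6% of genes, so neither the calls nor the separation set these genes apart from the rest. Their sizes stood toward the upper end: by limma estimate they ranked 74, 211, 439, 256 and 504 from the highest among 10599 genes, for PPP1R15A, DDIT3, GADD45A, GADD45B and FOS. These estimates are on the log2(RPKM + 1) scale, where genes under 1 RPKM in all groups can differ only little. Only 4989 genes of the deposited table reached 1 RPKM in at least 2 libraries, so the ranks favour the better expressed genes.

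PPP1R15A stood at 0.333, 0.440, 0.112, 0.202 and 0.220 RPKM in fresh TE samples 1 to 5. In vitrified TE it ran from 8.003 to 15.9 RPKM with a median of 11.1. The transcript was thus close to the lower limit of counting in fresh TE, where each library held 3 to 9 of its reads, and well covered in vitrified TE with 217 to 483. Group means were 11.8 ± 3.1 (SD, n = 7) and 0.261 ± 0.127 RPKM (n = 5), and limma gave a difference of 3.31 on the log2(RPKM + 1) scale (SE 0.18, adjusted p = 2.0e-11). This scale understates the change of a gene as low as this one. Pooled reads, 2449 against 29, gave a ratio of 47.1 per M reads, with a 95% interval of 32.7 to 70.4 that covers counting error only.

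DDIT3 stood at 4.16, 3.56, 4.27, 3.82 and 4.94 RPKM in fresh TE samples 1 to 5. In vitrified TE it ran from 24.3 to 38.6 with a median of 27.6. The fresh samples lay close together, and the gap to the lowest vitrified sample was wider than the spread of either group. Means were 28.6 ± 5.28 (n = 7) and 4.15 ± 0.522 RPKM (n = 5), a 6.89-fold difference, with a limma difference of 2.51 (SE 0.17, adjusted p = 2.6e-10).

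GADD45A stood at 4.11, 2.35, 3.03, 2.47 and 3.36 RPKM in fresh TE samples 1 to 5 and ran from 10.7 to 20.4 in vitrified TE, with a median of 14.4. Its means of 15.04 ± 3.83 and 3.06 ± 0.714 RPKM differed 4.91-fold, by 1.96 in limma (SE 0.20, adjusted p = 5.9e-08). GADD45B, its paralog, stood at 1.61, 1.02, 0.784, 1.11 and 1.27 RPKM in fresh TE and ran from 5.65 to 17.2 in vitrified TE, with a median of 12.1. The vitrified samples fell into a lower set, samples 3, 4 and 5 at 5.98, 5.65 and 7.65 RPKM, and a higher set of 4 from 12.1 upward. Both sets lay above all fresh TE samples. The means of GADD45B, 10.9 ± 4.55 and 1.16 ± 0.307 RPKM, differed 9.39-fold, by 2.37 in limma (SE 0.25, adjusted p = 1.1e-07).

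FOS stood at 10.4, 8.83, 8.80, 8.73 and 12.3 RPKM in fresh TE samples 1 to 5. It ran from 17.7 to 56.8 in vitrified TE, with a median of 46.0. Vitrified samples 4 and 3, at 17.7 and 24.6 RPKM, lay nearest to the fresh ones. Means were 41.6 ± 15.6 (n = 7) and 9.82 ± 1.57 RPKM (n = 5), a 4.23-fold difference, with a limma difference of 1.88 (SE 0.35, adjusted p = 9.9e-05).

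**Figure D1:**
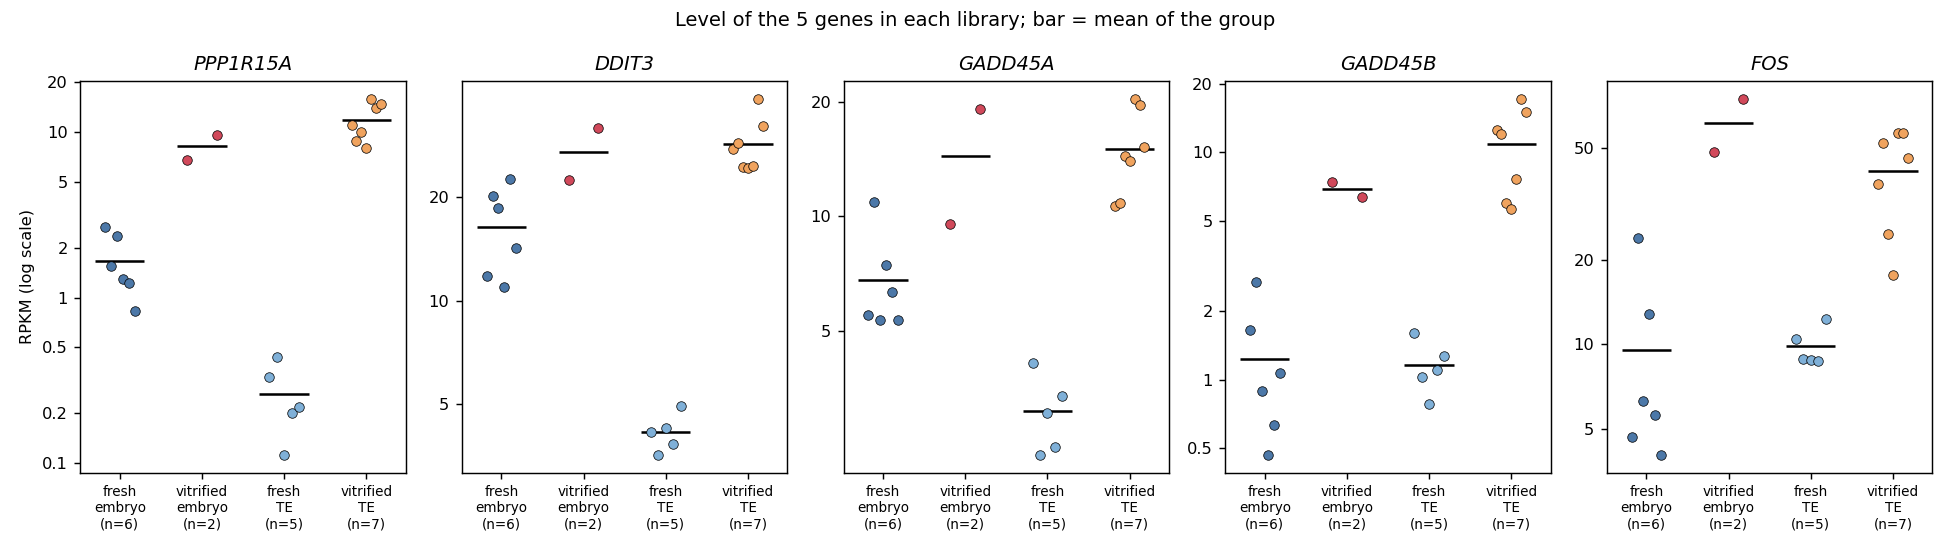
Level of each of the 5 genes in every library, in RPKM on a log scale, by group; each point is a library and each bar the arithmetic mean of the group. For PPP1R15A and GADD45B all 9 vitrified samples lie above all 11 fresh samples, while for DDIT3, GADD45A and FOS the highest fresh whole embryo reaches into the range of the vitrified samples.

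The sizes in TE depended on the scaling. Scaled per M reads of listed genes, the ratios of means were 28.4 for PPP1R15A, 4.47 for DDIT3, 3.17 for GADD45A, 6.06 for GADD45B and 2.73 for FOS. Median-ratio scaling, which sets the typical gene to the same level in all libraries, gave 20.5, 3.18, 2.27, 4.32 and 1.95. All 5 genes kept their direction and an adjusted p under 0.05 in each of 33 alternative settings. FOS came closest to losing it, with a limma difference of 0.83 and an adjusted p of 0.049 under median-ratio scaling, in a range of 4.0e-06 to 0.049 over its alternatives, and its fresh and vitrified TE values overlapped under both of these scalings. The median change of all genes was 0.18 on the log2(RPKM + 1) scale as deposited, 0.06 per M listed-gene reads, 0.01 under median-ratio scaling and -0.02 under quantile normalization. Relative to that median the change of FOS was 1.71, 1.23, 0.82 and 0.96 under these 4 scalings, and that of PPP1R15A 3.14, 3.002, 2.82 and 2.81. Among genes of at least 1 RPKM in at least 2 libraries the median as deposited was higher, 0.66 in TE. In whole embryos it was 0.20 among these genes, against 0.06 for all genes tested. As deposited, the members thus exceed the median of all genes by more than that of better expressed genes. This does not hold for all pathway lists below. In TE the list medians of the genes around eIF2 (0.12) and of those upstream of FOS (0.11) lay below both medians. That of the immediate early genes (1.03) lay above both, and those of the other pathway lists lay between the 2 medians. Of all genes called in TE, 91.2% were higher as deposited, 75.8% per M listed-gene reads, 56.0% under median-ratio scaling and 40.4% under quantile normalization.

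**Figure D2:**
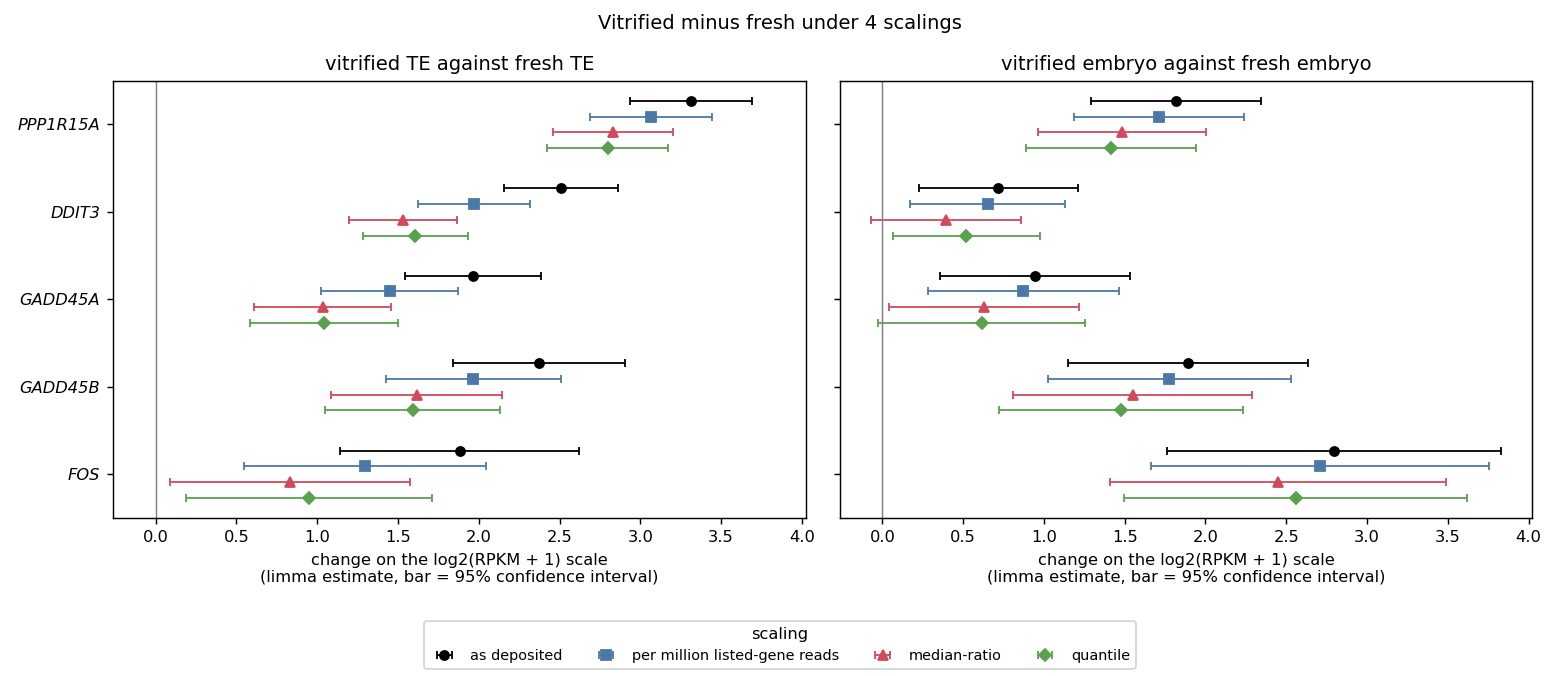
Limma difference between vitrified and fresh samples on the log2(RPKM + 1) scale for each gene under 4 scalings, with 95% confidence intervals, for TE (left) and whole embryos (right). In TE all intervals lie above 0 and shrink toward it from the deposited scale to median-ratio scaling; in whole embryos those of DDIT3 (median-ratio) and GADD45A (quantile) reach 0.

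In whole embryos FOS was the member that differed most, 6.45-fold between group means, and ranked 3 from the highest of 10599 genes by limma estimate. GADD45B followed at 5.59-fold (rank 20) and PPP1R15A at 4.95-fold (rank 30). These ranks, too, favour the better expressed genes. DDIT3 and GADD45A differed less, 1.65-fold and 2.12-fold. All 5 rose by limma at an adjusted p under 0.05, against 30.9% of all genes tested that changed, 26.9% that rose and 3.94% that fell. Of the changed genes 87.2% were higher as deposited, 60.2% under median-ratio scaling and 58.6% under quantile normalization. In 24.4% of all genes tested the rise was called in TE and in whole embryos alike, as it was for these 5.

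FOS stood at 4.67, 24.0, 6.25, 12.8, 5.57 and 4.03 RPKM in fresh whole embryos 1 to 6. The 2 vitrified whole embryos stood at 48.3 and 74.9 RPKM. Both lay above every fresh embryo, of which embryos 2 and 4 stood clear of the other four. Means were 61.6 ± 18.8 (n = 2) and 9.56 ± 7.74 RPKM (n = 6), with a limma difference of 2.79 (SE 0.49, adjusted p = 4.6e-04). FOS ranked 2 or 3 from the highest under all 4 scalings.

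GADD45B stood at 1.66, 2.68, 0.894, 0.467, 0.635 and 1.07 RPKM in fresh whole embryos 1 to 6, and at 7.41 and 6.40 RPKM in the vitrified ones. Fresh embryo 4 held only 6 of its reads. The groups did not overlap, and the limma difference was 1.89 (SE 0.35, adjusted p = 7.0e-04). PPP1R15A stood at 2.67, 1.56, 2.37, 1.30, 1.23 and 0.836 RPKM in fresh whole embryos and at 6.80 and 9.68 RPKM in the vitrified ones. The groups were again separate, with a limma difference of 1.82 (SE 0.25, adjusted p = 7.3e-05). Separation with the vitrified embryos higher, seen for FOS, GADD45B and PPP1R15A, was found for 29.4% of all genes tested.

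DDIT3 stood at 11.8, 20.1, 18.6, 10.9, 22.5 and 14.3 RPKM in fresh whole embryos, and at 22.4 and 31.8 RPKM in the vitrified ones. Vitrified embryo 1 lay just below fresh embryo 5, so the groups overlapped, and the limma difference was 0.72 (SE 0.24, adjusted p = 0.027). GADD45A stood at 5.50, 10.9, 5.32, 7.44, 6.31 and 5.32 RPKM in fresh whole embryos, and at 9.56 and 19.2 RPKM in the vitrified ones. Vitrified embryo 1 again lay below the highest fresh embryo, embryo 2, and the limma difference was 0.95 (SE 0.28, adjusted p = 0.015).

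The calls of DDIT3 and GADD45A in whole embryos rested on vitrified embryo 2. Without it the differences were 0.47 for DDIT3 (limma, adjusted p = 0.35) and 0.48 for GADD45A (adjusted p = 0.40), at the upper end of adjusted p of 0.013 to 0.35 and 0.0047 to 0.40 over all alternatives. Both calls were also lost under median-ratio scaling (0.40 and 0.63) and quantile normalization (0.52 and 0.62). FOS, GADD45B and PPP1R15A kept theirs in each of 32 alternatives. With 2 against 6 samples the two-sided exact permutation test used here, which doubles the smaller tail, cannot go below 0.0714 for a single gene. The limma tests of whole embryos rest on the spread pooled over the 4 groups.

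The 2 vitrification effects were compared directly. PPP1R15A, DDIT3 and GADD45A rose less in whole embryos than in TE: the effect in embryos minus that in TE was -1.50 for PPP1R15A (SE 0.31, limma, adjusted p = 0.0013), -1.79 for DDIT3 (SE 0.29, adjusted p = 1.6e-04) and -1.02 for GADD45A (SE 0.34, adjusted p = 0.030). A difference was called for 32.3% of all genes tested and a lower effect in embryos for 28.4%, and of all calls 87.7% were lower as deposited but 48.3% under median-ratio scaling and 36.7% under quantile normalization. GADD45B differed by -0.48 (95% interval -1.40 to 0.43, adjusted p = 0.42), and FOS by 0.91 in the other direction (-0.36 to 2.19, adjusted p = 0.26). Neither of these passed the threshold, which does not show that the effects were equal. The difference of DDIT3 was smaller under median-ratio scaling (-1.14, adjusted p = 0.0047) and quantile normalization (-1.09, adjusted p = 0.0049) and stayed called. The difference of GADD45A was lost under 3 scalings, at -0.58 per M listed-gene reads, -0.41 under median-ratio scaling and -0.43 after quantile normalization. Its adjusted p ran from 0.0092 to 0.42 over the alternatives. It was also lost without fresh TE 2 (-0.95, adjusted p = 0.052) and without vitrified embryo 1 (-0.55, adjusted p = 0.32).

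Between the kinds of sample, the 3 genes with the unequal effects were those called as deposited already without vitrification. In fresh samples, whole embryos stood above TE 6.36-fold for PPP1R15A, 3.95-fold for DDIT3 and 2.22-fold for GADD45A, with no overlap. Limma differences were 1.04 (SE 0.19, adjusted p = 7.8e-05), 1.72 (SE 0.17, adjusted p = 1.1e-07) and 0.92 (SE 0.21, adjusted p = 7.5e-04). GADD45B, at -0.01 (95% interval -0.56 to 0.54, adjusted p = 0.97), and FOS, at -0.28 (-1.05 to 0.48, adjusted p = 0.50), were not called. A difference was called for 66.0% of all genes tested and a higher level in fresh embryos for 60.0%, and separation in that direction was found for 48.4%. Of all calls 91.0% were higher as deposited, 54.2% under median-ratio scaling and 40.5% under quantile normalization. Median-ratio scaling lowered the ratios of means to 3.13 for PPP1R15A, whose groups then overlapped, to 1.997 for DDIT3 and to 1.14 for GADD45A. The limma differences there were 0.73 for PPP1R15A (adjusted p = 0.0025) and 0.87 for DDIT3 (adjusted p = 2.0e-04), both still called. This comparison shares the 5 fresh TE libraries with the one in TE and all fresh samples with the difference of effects, so they are not independent. The call of GADD45A was lost under the same 3 scalings, with differences of 0.40, 0.13 and 0.07, whereas FOS was called lower in fresh embryos under median-ratio scaling (-1.18, adjusted p = 0.011) and quantile normalization (-1.22, adjusted p = 0.0093).

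Among vitrified samples none of the 5 genes was called between whole embryos and TE by limma, also at an unadjusted p under 0.05, in a comparison in which 18.9% of all genes tested changed (80.9% of these higher as deposited, 55.0% under median-ratio scaling). The differences, embryo minus TE, were -0.45 for PPP1R15A (95% interval -0.97 to 0.06), -0.08 for DDIT3 (-0.56 to 0.40), -0.10 for GADD45A (-0.67 to 0.48), -0.49 for GADD45B (-1.22 to 0.24) and 0.63 for FOS (-0.39 to 1.64). With 2 whole embryos these intervals leave room for differences of up to 1.64 on this scale.

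Ordered by mean level, PPP1R15A, DDIT3 and GADD45A ran from fresh TE through fresh embryos and vitrified embryos to vitrified TE. As deposited, each step in PPP1R15A was free of overlap up to the vitrified groups, whose ranges overlapped. In DDIT3 and GADD45A only the step from fresh TE to fresh embryos was free of overlap as deposited. Under median-ratio scaling that step overlapped for PPP1R15A and GADD45A. The vitrified groups of PPP1R15A were separate under that scaling, with whole embryos below TE (ratio of means 0.60). GADD45B followed the same order, but its 2 fresh groups, at 1.16 and 1.23 RPKM, overlapped, as did its vitrified groups. FOS had another order, from fresh embryos (9.56 RPKM) and fresh TE (9.82 RPKM), which overlapped, to vitrified TE (41.6 RPKM) and vitrified embryos (61.6 RPKM), which overlapped as well. All 9 vitrified samples lay above all 11 fresh samples for PPP1R15A and GADD45B, which was the case for 10.2% of all genes tested. The lowest vitrified TE value of GADD45A, 10.7 RPKM, lay below fresh embryo 2 at 10.9 RPKM, and that of FOS, 17.7 RPKM, below fresh embryo 2 at 24.0 RPKM.

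A ratio of 2 transcripts within a library does not depend on the scaling of that library. PPP1R15A was therefore set against PPP1R15B, its constitutive counterpart, which directs the same phosphatase to eIF2. The log2 ratio of PPP1R15A to PPP1R15B was 4.34 ± 0.530 in vitrified TE (n = 7) and 0.07 ± 0.828 in fresh TE (n = 5), a 19.4-fold shift of the ratio (exact two-sided permutation p = 0.0025, adjusted 0.0101 over 8 tests). In whole embryos it was 3.46 ± 0.598 (n = 2) against 0.60 ± 0.736 (n = 6), 7.25-fold, with no overlap. The exact permutation p was 0.0714, the smallest that this form of the test allows there. PPP1R15B held only 5 to 14 reads per library in fresh TE, so the fresh TE ratio was imprecise. Its own level was 0.242 ± 0.101 RPKM in fresh TE and 0.587 ± 0.160 in vitrified TE (limma 0.35, adjusted p = 0.0014 as deposited, but -0.03 under quantile normalization), and 1.04 ± 0.262 in fresh and 0.742 ± 0.121 in vitrified embryos (-0.22, adjusted p = 0.18).

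DDIT3 was set against ATF4, the factor that acts on it. ATF4 itself was not called higher: its means were 122 ± 20.7 RPKM in fresh and 94.0 ± 20.3 in vitrified TE (limma -0.39, adjusted p = 0.095), and 122 ± 35.1 in fresh and 98.8 ± 48.5 in vitrified embryos (-0.35, adjusted p = 0.38). In TE it was called lower by limma under each other scaling. It stood there at -1.01 per M listed-gene reads (adjusted p = 2.5e-04), -1.50 by median ratios (3e-06) and -0.92 after quantile normalization (0.0019). In embryos ATF4 was called under no scaling. ATF4 is controlled mainly at translation, which these data do not measure. The log2 ratio of DDIT3 to ATF4 was -1.71 ± 0.513 in vitrified and -4.87 ± 0.400 in fresh TE, an 8.98-fold shift (exact permutation p = 0.0025, adjusted 0.0101). This ratio takes in the lower mean of ATF4 as well as the higher one of DDIT3. In embryos it was -1.80 ± 0.383 against -2.90 ± 0.598, 2.16-fold, here with no overlap (exact permutation p = 0.0714). DDIT3 alone had overlapped between the embryo groups.

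GADD45A relative to GADD45B, and FOS relative to JUN, gave no call in TE. In embryos none of the 4 ratios could be called by the two-sided exact permutation test used here, whose smallest p there is 0.0714. The log2 ratio of GADD45A to GADD45B was 0.54 ± 0.751 in vitrified and 1.41 ± 0.317 in fresh TE (exact permutation p = 0.068, adjusted 0.082), with overlap, and 0.98 ± 0.863 against 2.66 ± 0.849 in embryos, without overlap (exact permutation p = 0.0714). The log2 ratio of FOS to JUN was 0.51 ± 0.747 in vitrified and -0.16 ± 0.179 in fresh TE (exact permutation p = 0.091), with overlap. In embryos it was 1.88 ± 0.292 against 0.57 ± 0.593, 2.48-fold, without overlap (exact permutation p = 0.0714). These 4 ratios were chosen after values of the genes had been seen.

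**Figure D3:**
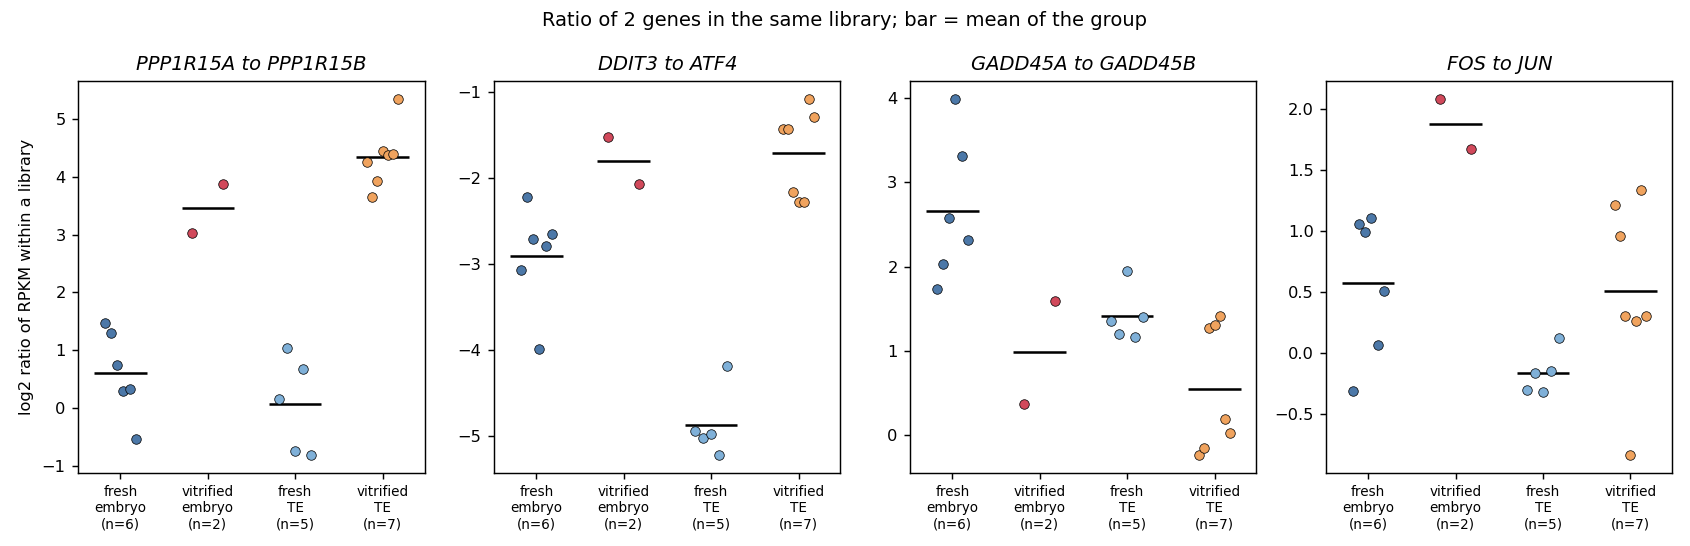
Log2 ratio of the RPKM of 2 genes within each library, by group; points are libraries and bars are group means. For PPP1R15A to PPP1R15B and DDIT3 to ATF4 the vitrified samples lie above the fresh ones of the same kind without overlap; for FOS to JUN they do so in whole embryos, and for GADD45A to GADD45B the vitrified embryos lie below the fresh ones.

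Within a group, the samples that stood highest were not the same for every member. Among fresh embryos, embryo 2 was highest for FOS, GADD45A and GADD45B, whereas embryo 1 was highest for PPP1R15A and embryo 5 for DDIT3. The coefficient of variation among fresh embryos was 81.0% for FOS, 66.6% for GADD45B, 42.7% for PPP1R15A, 32.01% for GADD45A and 28.9% for DDIT3, and in fresh TE it was 15.99% for FOS and 12.6% for DDIT3. Of the 20 pairwise relations tested by exact permutation in fresh embryos (n = 6) and vitrified TE (n = 7), 1 passed an adjusted p of 0.05, DDIT3 with GADD45B in vitrified TE (Pearson, adjusted p = 0.024, 0 by rank). It is not given as a correlation, because the values of GADD45B fell into the 2 sets named above, with fewer than 6 samples in each, and the relation within them cannot be tested. For the 6 pairs without GADD45B in vitrified TE, Pearson's r was positive in all 6, at 0.24 to 0.71 (exact permutation p = 0.077 to 0.61, adjusted 0.34 to 0.94), and Spearman's rho was 0.21 to 0.75 (exact permutation p = 0.066 to 0.66, adjusted 0.55 to 0.95). Without the 2 samples farthest from the median, r ran from -0.78 to 0.74. In fresh embryos r was positive in 3 of these 6 pairs, at -0.16 to 0.96 (exact permutation p = 0.028 to 0.94, adjusted 0.28 to 0.99), with rho of -0.20 to 0.66 (exact permutation p = 0.175 to 0.92, adjusted 0.57 to 0.97). The highest r there, of GADD45A with FOS, dropped to 0.28 without the 2 farthest samples. With 6 and 7 samples, missing the threshold does not show that the members vary independently. Vitrified TE 3, 4 and 5, low in GADD45B, had the 3 lowest values of DDIT3 as well, between 24.3 and 24.6 RPKM. They were not low together in GADD45A, where sample 5 was the highest of the 7 at 20.4 RPKM.

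**Figure D4:**
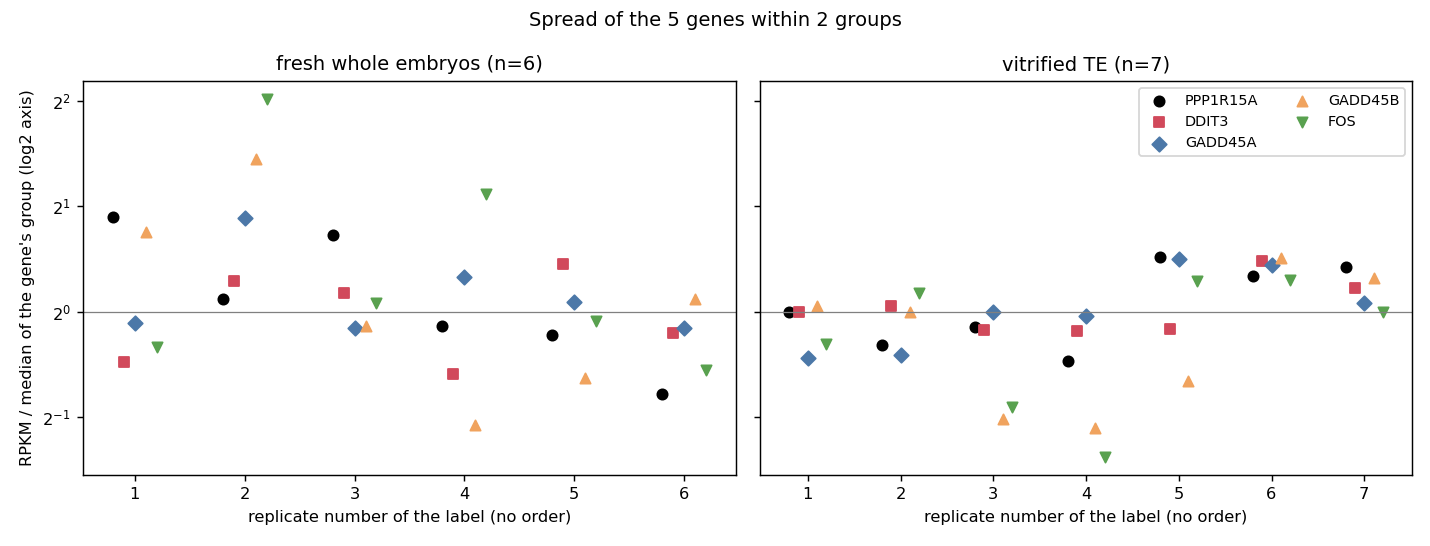
Level of each gene in each fresh whole embryo (left) and each vitrified TE sample (right), divided by the median of that gene in its group, on a log2 axis; replicate numbers carry no order. Fresh embryo 2 stands high for FOS, GADD45B and GADD45A but not for PPP1R15A or DDIT3, and vitrified TE samples 3 and 4 stand low for GADD45B and FOS.

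The genes with the most similar profiles were found by the mean absolute difference of centred log2(RPKM + 1) values over all 20 samples. DDIT3 was nearest to KIF20A, a mitotic kinesin (0.195), NCL, nucleolin of the nucleolus (0.220), and MYC, a growth-promoting transcription factor (0.226). GADD45A was nearest to PLEKHF1 (0.183), BRD2, a chromatin reader (0.217), and the messenger RNA export factor NXF1 (0.230). PPP1R15A was nearest to CHCHD10, a mitochondrial protein (0.277), then to RNF126 (0.324) and LUZP1 (0.336). GADD45B was nearest to HEXIM1, which holds back transcription elongation (0.356), to its paralog GADD45G (0.379) and to RASD1 (0.420). FOS was nearest to IER2, another immediate early gene (0.445), to GADD45B (0.493) and to the Wnt receptor FZD10 (0.511). GADD45B was thus the only member among the 3 nearest profiles of another member. All of these profiles include the differences between the 4 groups.

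The wider pathways were followed through 8 lists. Among 28 tested targets of the integrated stress response other than the members, 21 rose and 2 fell in vitrified TE (13 and 5 by median ratios), with a median of 0.43 against 0.18 for all genes. The share that rose was 75.0%, near the 69.0% of all genes. SHMT2 (2.91, adjusted p = 7.0e-13) and MTHFD2 (1.67, 1.2e-09), enzymes of mitochondrial one-carbon metabolism, rose with SLC3A2, a subunit of amino acid transporters (1.87, 7.8e-11), and CTH, of cysteine synthesis (0.69, 1.0e-08). TRIB3, an inhibitor that DDIT3 is known to raise, fell by 0.28 (2.2e-04), and DDIT4, an inhibitor of the growth kinase mTOR, fell by 0.78 (0.0094). ATF3, a partner of the pathway, rose by 0.92 (0.0017) in TE as deposited, all by limma, but stood at 0.33 (adjusted p = 0.25) under median-ratio scaling. By median ratios CTH stood at 0.42, TRIB3 at -0.54 and DDIT4 at -1.75, all still called. In whole embryos 7 rose and 2 fell (4 and 2 by median ratios), with a median of 0.09 against 0.06 for all genes. SHMT2 rose by 1.15 (9.8e-05) and XPOT, which exports transfer RNA, by 0.44 (8.2e-04), while NUPR1 fell by 1.06 (0.033) and GDF15 by 0.86 (0.034). In TE, by contrast, NUPR1 rose by 0.76 (0.013) and GDF15 by 0.57 (0.022) as deposited, calls that were lost after quantile normalization. The effect in embryos minus that in TE was -1.82 for NUPR1 (limma, adjusted p = 0.0044) and -1.43 for GDF15 (0.0059). XPOT stood at 0.26 (0.016) by median ratios. ATF3 stood at -0.25 (0.59) in embryos. Its 2 effects differed by -1.18 (0.032) as deposited, a call that was lost under the other 3 scalings (-0.89, -0.76 and -0.74).

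Of 20 genes of the apparatus around eIF2 (kinases, eIF2 subunits, exchange factor, phosphatase), 11 rose and 1 fell in TE (55.0% higher against 69.0% of all genes), with a median of 0.12 against 0.18 for all genes, but 7 rose and 7 fell per M listed-gene reads and 4 rose and 9 fell under median-ratio scaling. The kinase gene EIF2AK1 (0.65, adjusted p = 5.2e-10), the exchange factor gene EIF2B1 (1.10, 1.1e-07) and PPP1CA, a catalytic subunit that PPP1R15A recruits (1.54, 1.9e-07), rose, and stayed called under all 4 scalings. By median ratios EIF2B1 stood at 0.50 and PPP1CA at 0.46. PPP1CC, another catalytic subunit, rose by 0.69 (2.1e-06) as deposited but stood at -0.12 under median-ratio scaling. In embryos 5 rose and 0 fell (limma, 3 rose and 1 fell under quantile normalization), EIF2AK1 by 0.37 (4.3e-04) and EIF2B1 by 0.84 (9.3e-04), which stood at 0.18 and 0.51 after quantile normalization, still called. These 5 of 20 genes compare with 26.9% of all genes that rose.

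Of 18 genes of the unfolded protein response, which senses misfolded proteins in the endoplasmic reticulum and also feeds into DDIT3, 13 rose and 1 fell in TE (9 and 6 by median ratios), with a median of 0.35 and 72.2% higher against 69.0% of all genes. HSPA5, its main chaperone, rose by 2.83 (limma, adjusted p = 3.0e-09), with the disulfide isomerase PDIA4 at 1.21 (4.7e-10), the transcription factor XBP1 at 1.24 (2.0e-08) and EDEM1, of protein disposal, at 0.63 (3.3e-09). DNAJB11, a chaperone of the same compartment, fell by 0.71 (7.3e-06). By median ratios XBP1 stood at 0.17 and lost its call (adjusted p = 0.225), while HSPA5 at 1.76, PDIA4 at 0.38, EDEM1 at 0.23 and DNAJB11 at -1.72 kept theirs. In embryos 9 rose and 0 fell (limma, 5 rose and 0 fell by median ratios), with a median of 0.39 against 0.06 for all genes, 26.9% of which rose. PDIA4 rose by 0.94 (4.1e-05), the chaperone CALR by 0.90 (2.9e-04) and HSPA5 by 0.96 (0.029). HSPA5 was not called by median ratios (0.63, adjusted p = 0.17), and CALR stood at 0.57 there, still called. HSPA5 stood at 13.8 ± 4.69 RPKM in fresh TE, 104 ± 31.7 in vitrified TE, 72.0 ± 10.6 in fresh embryos and 142 ± 37.6 in vitrified embryos, so that, as for DDIT3, the lowest level was that of fresh TE.

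Among 31 immediate early genes other than FOS, 25 rose and 1 fell in TE (12 and 4 by median ratios), with a median of 1.03. In embryos 12 rose and 2 fell (4 and 3 after quantile normalization), with a median of 0.34. The share that rose, 80.6% in TE and 38.7% in embryos, compares with 69.0% and 26.9% of all genes. JUNB, a partner of FOS, rose by 4.08 in TE (limma, adjusted p = 2.2e-10) and 1.10 in embryos (0.033), and MYC by 2.71 (1.6e-11) and 1.09 (6.6e-04). In embryos JUNB was not called by median ratios (0.78, adjusted p = 0.17). TOB1, an inhibitor of proliferation, rose in TE by 2.23 (2.6e-12) and stood at 0.25 (0.20) in embryos. JUN, the classical partner of FOS, rose by 1.24 (5.5e-04) and 1.48 (0.0074) as deposited. By median ratios it stood at 0.19 (adjusted p = 0.58) in TE and 1.15 (0.052) in embryos, and neither was called. The kinase gene SGK1 rose by 2.0 (1.2e-09) and 1.87 (1.6e-05). IER2, which had the profile nearest to FOS, rose by 1.89 (2.0e-06) and 1.69 (0.0016). EGR1, a zinc finger factor often induced together with FOS, rose by 1.27 (0.0011) in TE as deposited and stood at 0.91 (0.12) in embryos. EGR1 lost its call in TE under the other 3 scalings, at 0.68 per M listed-gene reads, 0.22 by median ratios and 0.29 after quantile normalization. SGK1 and IER2 stood at 1.16 and 0.85 in TE by median ratios, still called. BTG1, which restrains proliferation, fell by 1.29 (6.5e-04) in embryos, as did the kinase gene PLK3 by 0.74 (0.022). In TE PLK3 rose by 0.59 (0.0040) as deposited but was not called under the other scalings.

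Of 11 kinases and transcription factors upstream of FOS, 9 rose and 0 fell in TE by limma (3 rose and 4 fell after quantile normalization), with a median of 0.11 against 0.18, and 5 rose and 0 fell in embryos. The shares that rose, 81.8% and 45.5%, compare with 69.0% and 26.9% of all genes. The kinase gene MAP2K2 rose by 1.46 (adjusted p = 2.1e-10) and 0.72 (6.9e-04), and RPS6KA1, a kinase further down the cascade, by 0.85 in TE (5.6e-09). By median ratios MAP2K2 stood at 0.93 and 0.46 and RPS6KA1 at 0.53, all still called. ELK1, which acts on the FOS promoter, stood at no more than 0.159 RPKM in any library.

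Of 17 genes of growth arrest and the response to DNA damage, 11 rose and 0 fell in TE by limma (6 rose and 4 fell after quantile normalization), with a median of 0.50, and 5 rose and 0 fell in embryos (3 rose and 3 fell by median ratios), with a median of 0.01. The shares that rose, 64.7% and 29.4%, were near the 69.0% and 26.9% of all genes. GADD45G, the third paralog, rose by 1.55 in TE (adjusted p = 2.3e-04) and by 1.93 in embryos (0.0029) as deposited. By median ratios it was not called in TE (0.60, adjusted p = 0.10) and was called in embryos (1.59, 0.017). It stood at 2.58 ± 1.25 RPKM in fresh embryos, 3.69 ± 0.834 in fresh TE, 11.9 ± 0.825 in vitrified embryos and 14.1 ± 7.38 in vitrified TE, the same grouping as GADD45B. TIGAR, which restrains glycolysis, rose by 1.06 (8.1e-08) and 1.14 (5.8e-05), and PERP, a junction protein, by 1.52 in TE (3.3e-09). In TE TIGAR stood at 0.69 and PERP at 0.53 by median ratios, still called. CDKN1A, an inhibitor that halts the cell cycle, was called in neither comparison, at 0.50 (0.072) in TE and -0.58 (0.21) in embryos. MDM2, a ubiquitin ligase gene, rose by 0.25 in TE (0.0016) as deposited but stood at -0.11 under median-ratio scaling, and at -0.14 (0.25) in embryos.

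Of 11 genes whose products bind or act with GADD45 proteins, 7 rose and 1 fell in TE (5 and 4 under quantile normalization), and 2 rose and 0 fell in embryos (limma, 1 rose and 0 fell under median-ratio scaling). The shares that rose, 63.6% and 18.2%, lay below the 69.0% and 26.9% of all genes. PCNA, the replication clamp (2.13, adjusted p = 6.5e-09), GADD45GIP1, named for its binding to GADD45G (1.87, 8.6e-09), CCNB1, the mitotic cyclin (1.58, 8.3e-10), and MAP3K4, the kinase that GADD45 proteins activate (0.40, 6.6e-11), rose in TE. By median ratios these 4 stood at 1.12, 0.81, 0.62 and 0.27, all still called. CCNB1 rose by 0.81 (0.0012) and MAP3K4 by 0.15 (0.0023) in embryos, and stood at 0.49 (0.029) and 0.08 (0.085) by median ratios. Of 10 heat shock genes, 6 rose and 1 fell in TE as deposited, but 4 rose and 5 fell per M listed-gene reads, and 5 rose and 1 fell in embryos. These 6 and 5 of 10 genes that rose compare with 69.0% and 26.9% of all genes. HSPB1, a small chaperone, rose by 4.71 in TE (2.7e-11), and HSPA1A, the inducible chaperone, by 2.73 (4.1e-07) and 1.71 (0.0078). DNAJB1, its partner, rose by 1.29 (6.2e-04) in embryos, and in TE by 0.61 (0.0036) as deposited but stood at -0.41 under median-ratio scaling.

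**Figure D5:**
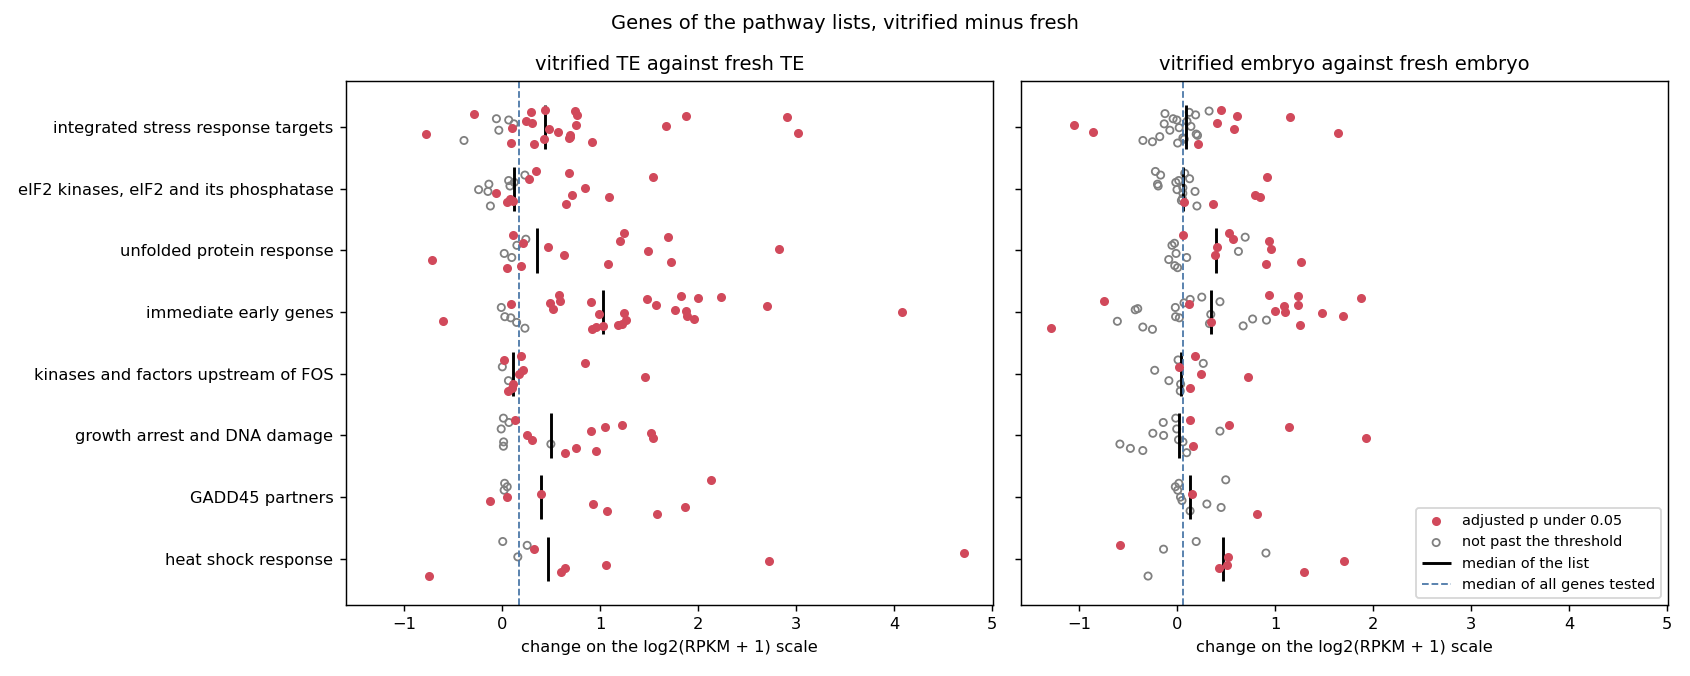
Limma difference between vitrified and fresh samples on the log2(RPKM + 1) scale for the tested genes of 8 pathway lists, in TE (left) and whole embryos (right); filled points have an adjusted p under 0.05, black bars are list medians and the dashed line is the median of all genes tested. Immediate early genes show the highest list median in TE, 1.03 against 0.18, and in whole embryos the medians of most lists lie close to that of all genes.

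Markers of other cell types moved between the same groups. Summed levels of the hypoblast markers, of which 8 of 10 were in the table, were 152 to 327 RPKM in fresh TE and 638 to 1433 in vitrified TE, and 633 to 1105 in fresh and 240 to 709 in vitrified whole embryos. Most of these sums was APOA1, a lipid carrier, with means of 243 RPKM in fresh and 892 in vitrified TE, and 763 in fresh and 442 in vitrified embryos. All 7 tested hypoblast markers rose in TE, against 69.0% of all genes, and stayed called under all 4 scalings. In embryos APOA2 fell by 1.70 (limma, adjusted p = 0.027) and APOA1 stood at -1.03 (0.0503), whereas the transcription factor GATA6 rose by 0.10 (0.017) at means under 0.1 RPKM, and FOXA2 and SOX17 stood at 0.69 (0.079) and 0.40 (0.26). The epiblast markers (6 of 8) summed to 1.74 to 4.58 RPKM in fresh TE, 5.42 to 9.82 in vitrified TE, 4.25 to 12.5 in fresh and 6.93 to 32.7 in vitrified embryos. Of these only SALL4 was called by limma, higher in TE (1.10, adjusted p = 3.5e-09) and in embryos (0.53, 0.0039). The other 5, with POU5F1, NANOG and SOX2 among them, were called in neither. By median ratios no epiblast marker was called in embryos. CUBN, a hypoblast marker, was at 0 in both vitrified embryos, and no other marker of the lists in the table was at 0 throughout a group. Trophectoderm markers (13 of 13) were present in every group, at 2472 to 3113 RPKM in fresh TE, 1999 to 3000 in vitrified TE, 1449 to 2151 in fresh and 2315 to 2771 in vitrified embryos. These sums rest on the keratins KRT18 and KRT8 and hide opposite moves, with 6 markers called higher and 6 lower in TE. Mean levels in fresh and vitrified TE were 2154 and 1518 RPKM for KRT18, and 163 and 859 RPKM for KRT8. IFNT, the interferon by which the embryo signals pregnancy, fell by 4.67 in TE (limma, adjusted p = 2.2e-12), as did the placental glycoprotein genes PAG2 (-4.53, 1.4e-11) and PAG11 (-3.55, 6.2e-09), and PTGS2, of prostaglandin synthesis (-2.15, 8.5e-09). The transcription factor genes ELF3 and ASCL2 rose by 3.43 (4.8e-10) and 3.21 (2.4e-09), and KRT8 by 2.39 (2.0e-11). These 7 kept their direction and call in TE under all 4 scalings. In embryos 6 trophectoderm markers were called higher and 1 lower by limma, with 46.2% higher against 26.9% of all genes. IFNT fell there as well (-1.62, adjusted p = 5.5e-04), whereas PAG2 rose (1.39, 0.0040). PAG11 (0.38, 0.53) and PTGS2 (-0.65, 0.068) were not called in embryos. Blood and immune markers (5 of 8) summed to 9.80 to 15.9 RPKM in fresh TE and 3.65 to 7.23 in the other groups. The high sum in fresh TE was mostly AIF1, a gene of macrophages, at 8.83 to 15.3 RPKM there and 0.341 to 1.10 in vitrified TE, which fell by 2.92 (3.6e-11), whereas CD68, HBA and CD14 rose by 1.56, 1.11 and 0.39 (CD14 only 0.09, not called, by median ratios). The endometrium markers (2 of 7) summed to 0.981 to 5.04 over all groups. The part of these cell types in the levels of the 5 genes was not tested.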

How the data were processed

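RNA sequencing of 20 samples was analysed from a single table of the whole series. Per the submitters' processing notes, FastQC, STAR 2.5.3a, Partek and the UMD3.1 assembly were used. Not given in the sources used here were aligner options, the counting rule and the use of strand. Units were inferred as RPKM from the deposited table itself: after the authors' offset of 0.01 was subtracted and each value multiplied by the genomic span, 94.5 to 95.8% of values under 1000 reads fell within 0.1 of a whole number of reads per library. Recovered reads set the depth and the filter (at least 10 reads in at least 2 libraries). Intervals from reads cover counting error only.

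The tests across genes used log2(RPKM + 1) in limma 3.58.1 (R 4.3.3, statmod 1.5.0), with 4 group means, eBayes with trend and robust fitting, and Benjamini-Hochberg adjustment over 10599 genes, at 0.05. Single values were compared by exact two-sided permutation with the smaller tail doubled (scipy 1.17.1). The scripts were checked on simulated data. Alternatives changed the scaling, pseudocount, filter, samples and model. The members and gene lists were chosen with earlier results of these data known. Named genes were the 5 members, up to 4 of each list with the smallest p past the threshold in TE and up to 2 in whole embryos, 9 fixed regulators, and the 3 nearest profiles of each member. Some of the genes that fell within a list, IER2 and the cell type markers named were added after their values were seen. Results of some genes are not reported here.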

Additional observations from a re-analysis of the deposited data

Results flagged for a closer look

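The effect of vitrification differed between whole embryos and TE for 3 of the 5 genes, by the test of the difference itself in limma. The effect in embryos minus that in TE was -1.50 for PPP1R15A (adjusted p = 0.0013), -1.79 for DDIT3 (1.6e-04) and -1.02 for GADD45A (0.030) on the log2(RPKM + 1) scale, where 32.3% of all genes tested passed. The lowest level of each of these genes was that of fresh TE, whose libraries stood apart in the share of reads in listed genes. For DDIT3 it was -1.14 and for PPP1R15A -1.35 under median-ratio scaling, both still called, and for GADD45A it was lost under 3 scalings. No single sample was marked as far from its group in the 21 sets checked, where chance would mark about 1 in 20. The check takes sets of 4 to 10 samples, and the 2 vitrified embryos were too few for it. The other groups held 5, 6 and 7 samples, and in sets this small it can miss a sample that strays.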

How the results depend on the processing

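In TE the 5 calls held in all 33 alternatives, over limma differences of 0.83 to 5.07. In whole embryos PPP1R15A, GADD45B and FOS held in all 32. DDIT3 lost its call under median-ratio scaling (0.395), quantile normalization (0.519), a fit of the compared groups alone (0.717) and sample weights (0.608), and ran from 0.474 to 0.96 when a sample was left out. GADD45A lost its call in the same settings (0.627, 0.615, 0.945 and 0.975) and ran from 0.477 to 1.41. Its difference of effects was lost per M listed-gene reads (-0.576), under median-ratio scaling (-0.405), quantile normalization (-0.426), sample weights (-1.03) and averaging of the near-identical fresh TE libraries (-0.986), and ran from -1.49 to -0.549 when a sample was left out. Fresh embryos against fresh TE lost GADD45A per M listed-gene reads (0.401), under median-ratio scaling (0.127) and quantile normalization (0.07), gained FOS under median-ratio scaling (-1.18) and quantile normalization (-1.22), and turned GADD45B, not called, under sample weights (0.038) and without single samples (-0.171 to 0.095: 0.021, 0.095 and 0.064 without fresh embryos 3, 4 and 5, and 0.059 and 0.01 without fresh TE 1 and 5). Vitrified embryos against vitrified TE, where no member was called, turned for DDIT3 (-0.322 to 0.164) and GADD45A (-0.567 to 0.37), both without vitrified embryo 1. The cause was not tested in these cases.

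Counts of called genes depended on the settings. Vitrified against fresh TE gave 8017, and 4112 with a filter of 1 RPKM, which tests fewer genes. Vitrified against fresh embryos gave 3270, and 1711 with that filter, 1863 under median-ratio scaling, 1571 under quantile normalization, 2157 in the compared groups alone and 1763 with sample weights, and 1137 (without vitrified embryo 2) to 3577 when a sample was left out. Fresh embryos against fresh TE gave 6997, and 3910 with that filter. Vitrified embryos against vitrified TE gave 1998, and 937, 593, 494, 786 and 175 in the same 5 settings, and 139 (without vitrified embryo 2) to 2336 when a sample was left out. Where a vitrified embryo was left out, the lone sample was assumed to vary like the other groups. Of the 20 relations between members, 1 passed as deposited and 0 per M listed-gene reads.

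Samples share replicate numbers, but no label says that a number marks a shared embryo or day, and same-numbered samples deviated from their group means with correlations of -0.165 to -0.004 between fresh and vitrified TE, -0.145 and -0.078 between fresh and vitrified embryos, -0.175 to 0.16 between fresh embryos and fresh TE, and 0.314 and -0.185 for the 2 numbers shared by vitrified embryos and vitrified TE. A fit with the replicate block changed 1 member call, the difference of effects of GADD45A (-0.94, adjusted p = 0.12), and gave 790 called genes between vitrified embryos and vitrified TE. Depth limited PPP1R15A and PPP1R15B in fresh TE. The two-sided exact permutation test used here, which doubles the smaller tail, cannot go below 0.0714 for 2 against 6 whole embryos.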
